A study of Homo sapiens with 183 samples.

Results

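E-cadherin (CDH1) and 9 genes of the mesenchymal state, CDH2, VIM, FN1, SPARC, SNAI1, SNAI2, TWIST1, ZEB1 and ZEB2, were followed across 9 human cancer cell lines. The genes were taken by name, with earlier results of these data known, and they are 10 of the 19875 genes with a value in each of 8 tables. The study asked how the transcription factor KLF5 and the ATPases RUVBL1 and RUVBL2 maintain the lineage states of pancreatic ductal adenocarcinoma (PDAC). Messenger RNA was sequenced in 183 bulk libraries and is given as TPM, the share of a transcript's molecules in the library scaled to the same total in each. PDAC cells that express Cas9 were harvested 5 days after a single guide RNA (sgRNA) was introduced, and the control, sgRosa, targets a safe-harbor locus that is not expected to affect the cells. The PDAC lines were AsPC-1 and SUIT-2 (classical state), T3M-4 and BxPC-3 (basal-like state) and CFPAC-1. KLF5 was knocked out in all 5 lines, RUVBL1, RUVBL2, CDK1 and RPA3 (labelled sgRpa3) in AsPC-1, CFPAC-1, T3M-4 and BxPC-3, and SERPINB5 and CHD4 in AsPC-1. CDK1 and RPA3 are needed for cell division and served as a comparison for the loss of an essential gene. AsPC-1 and T3M-4 cells carrying an empty vector (EV), RUVBL1 A62T or RUVBL2 dF109, which are variants selected against the compound, were treated for 24 h with CB-6644, an allosteric inhibitor of the RUVBL1/2 ATPase, or with DMSO. The parental lines T84 (colorectal carcinoma), A375 (melanoma), H1048 (small cell lung cancer of the tuft-like kind) and RH30 (rhabdomyosarcoma) were treated in the same way.

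Cells of an epithelium adhere through E-cadherin, and in the epithelial-mesenchymal transition (EMT) this junction is dismantled while N-cadherin, the filament protein vimentin and matrix proteins such as fibronectin are gained. The zinc-finger factors SNAI1, SNAI2, ZEB1 and ZEB2 bind E-box elements in the CDH1 promoter and repress it, and TWIST1 acts on the same programme. In PDAC a partial EMT, in which both gene groups are expressed in the same cells, is common. In GENCODE v44 on hg38 CDH1 at chr16:68737292-68835537 (plus strand), CDH2 at chr18:27932879-28177946 (minus strand), VIM at chr10:17228241-17237593 (plus strand), FN1 at chr2:215360440-215436073 (minus strand) and SNAI1 at chr20:49982980-49988886 (plus strand) are protein-coding genes.

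The libraries of a group carry separate labels, each line is 1 established line, and the labels do not tell the sgRNAs of a knockout apart, of which the study used 2 for KLF5, RUVBL1, RUVBL2, SERPINB5 and the control and 1 each for CDK1 and RPA3. The study calls knockout libraries of several experiments biological replicates. The labels do not say which libraries were separate cultures, and the p-values measure the spread between libraries. In bulk RNA fewer expressing cells and less RNA per cell cannot be told apart. Every library summed to 1000000 TPM, 11292 to 14024 genes reached 1 TPM per library, and depth is unknown. The 4 epithelial markers EPCAM, KRT8, KRT18 and KRT19 were all at 1 TPM or more in the 5 PDAC lines, T84 and H1048, and 2 of 4 were in A375 and RH30. All 6 colorectal markers were present in T84, all 6 muscle markers in RH30, 4 of 6 tuft cell markers in H1048 and 3 of 6 melanoma markers in A375, which had PMEL, TYR and DCT below 1 TPM. RUVBL1, RUVBL2 and SERPINB5 transcripts were lower in every knockout library than in every sgRosa library of the same experiment. The CDK1 transcript was lower and passed the test in T3M-4 and BxPC-3, and RPA3 was below the controls in both libraries of each of 6 comparisons and passed in experiment 2 of T3M-4 and BxPC-3. In AsPC-1 the CDK1 transcript was 128 against 147 TPM, with both knockout libraries below the controls (limma, adjusted p = 0.202). In CFPAC-1 CDK1 was 200 against 215 TPM and was not called (limma, adjusted p = 0.678). The KLF5 transcript fell only in CFPAC-1, from 192 to 144 TPM, and was higher in T3M-4 experiment 2, at 565 against 332 TPM, and in AsPC-1 experiment 1. Its level does not test whether the gene was edited. The same holds for CHD4, at 82.7 against 66.8 TPM.

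E-cadherin and vimentin were not mutually exclusive in the control libraries of the PDAC lines. CDH1 was highest in T84, at 232 ± 19.96 TPM (SD, n = 4), and in BxPC-3, at 226 ± 9.27 TPM (SD, n = 6), whose ranges overlapped. CFPAC-1 (111 TPM), T3M-4 (91.8 TPM) and SUIT-2 (73.5 TPM) followed with overlapping ranges. AsPC-1 had the lowest mean of the PDAC lines, with a range that overlapped SUIT-2, at 26.8 ± 10.01 TPM (SD, n = 17). H1048 had 3.03 ± 0.125 TPM (SD, n = 4), and A375 and RH30 had 0.22 and 0.216 TPM. VIM, which encodes vimentin, was highest in RH30 (3662 ± 52.6 TPM (SD, n = 4)) and AsPC-1 (3569.7 ± 379 TPM (SD, n = 17)), whose ranges overlapped, and was also high in CFPAC-1, at 2939 ± 146 TPM (SD, n = 4). SUIT-2 had 331 TPM, BxPC-3 39.9 TPM, T3M-4 2.85 TPM and T84 0.831 TPM, so that the basal-like lines were the PDAC lines with the least VIM. The mean and SD of a line pool its control libraries over all its experiments, so the SD also holds differences between experiments. Experiment means ran from 16.8 to 42.7 TPM for CDH1 in AsPC-1 and from 0.962 to 6.64 TPM for VIM in T3M-4. These levels were set across tables that were normalized separately and are a description.

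The other structural genes did not follow VIM. CDH2, which encodes N-cadherin, stood at 55.3 TPM in A375, 46.9 TPM in RH30 and 46.6 ± 11.6 TPM (SD, n = 4) in CFPAC-1, the last with a range that overlapped RH30, and at 27.1 TPM in H1048. BxPC-3 had 3.16 TPM and T3M-4 1.12 TPM of CDH2, and AsPC-1, SUIT-2 and T84 had less than 0.1 TPM. FN1, which encodes fibronectin, was highest in H1048 (50.7 ± 1.51 TPM (SD, n = 4)) and A375 (38.2 TPM). In the PDAC lines FN1 was 10.7 ± 5.95 TPM (SD, n = 9) in T3M-4, 8.59 TPM in BxPC-3 and 5.09 TPM in CFPAC-1, with overlapping ranges, and 0.271 and 0.167 TPM in SUIT-2 and AsPC-1. SPARC, which encodes the matrix glycoprotein osteonectin, was abundant in A375 (600.1 ± 18.4 TPM (SD, n = 4)) and RH30 (419 TPM), and no other line had a mean above 2.39 TPM. That mean was of BxPC-3, whose experiment means were 0.292 and 6.6 TPM.

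Among the repressors of CDH1, SNAI2 was the most abundant in each PDAC line except SUIT-2, with 67.3 TPM in BxPC-3, 43.4 in AsPC-1, 33.3 in T3M-4, 24.1 in CFPAC-1 and 2.08 in SUIT-2, and the ranges of the first 4 overlapped from each line to the next. It was highest in RH30, at 153 ± 3.53 TPM (SD, n = 4). ZEB1 was at 14.1 TPM in AsPC-1, 11.4 TPM in CFPAC-1 and 2.72 TPM in SUIT-2, the PDAC lines with the most VIM, and below 1 TPM in both basal-like lines. ZEB1 was highest in RH30, at 102 ± 2.46 TPM (SD, n = 4), and was 17.4 TPM in A375. SNAI1 was low in every PDAC line, between 0.328 TPM in SUIT-2 and 2.996 TPM in T3M-4, and was highest in A375, at 16.6 ± 1.91 TPM (SD, n = 4). ZEB2 stayed below 1 TPM in all PDAC lines and reached 26.5 TPM in RH30, 8.69 in A375 and 7.83 in H1048. TWIST1 was 59.4 TPM in H1048, 10.9 in A375 and 1.44 in T84, and was listed at 0 in every control library of AsPC-1, SUIT-2, CFPAC-1, T3M-4 and RH30.

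**Figure D1:**
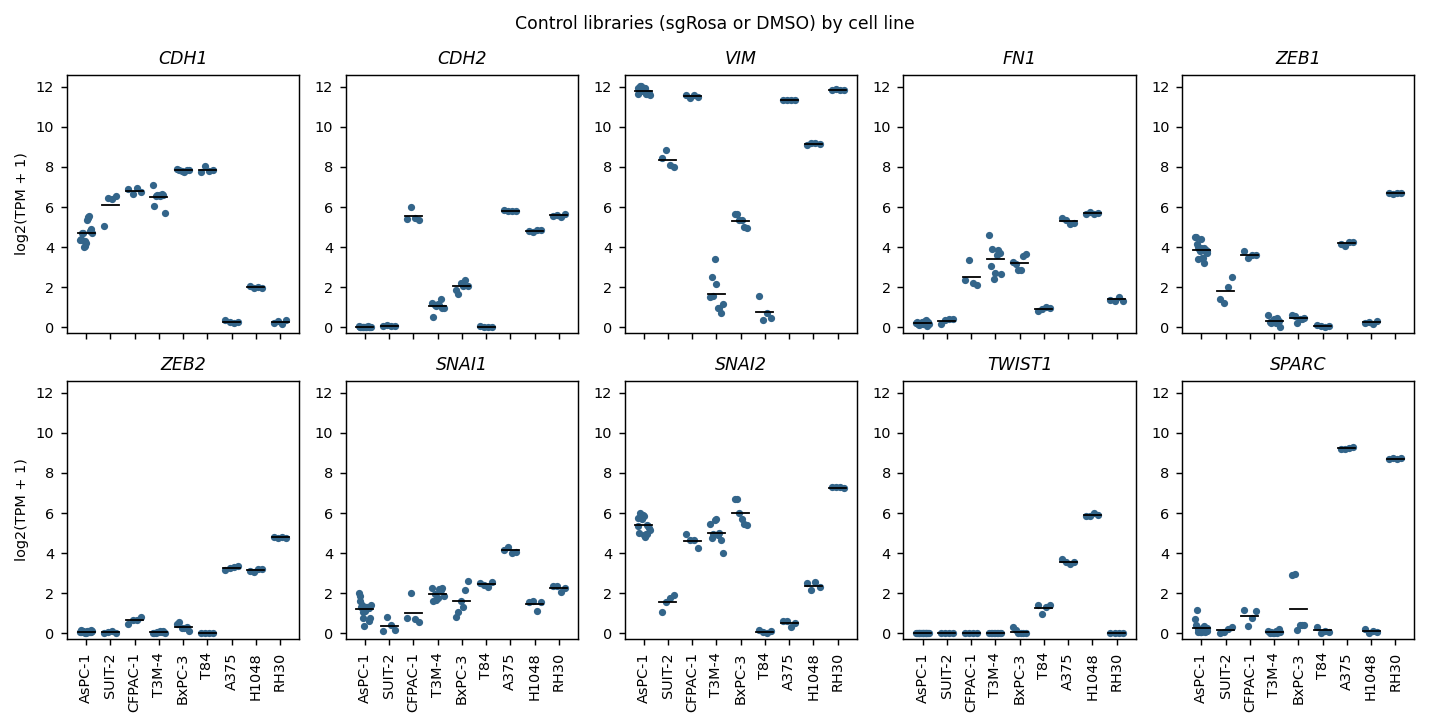
Level of the 10 genes in every control library (sgRosa or DMSO), as log2(TPM + 1) on the y axis, by cell line on the x axis. Each point is 1 library and each bar the mean of the line, and AsPC-1 and CFPAC-1 carry both CDH1 and VIM while RH30 and A375 carry VIM with little CDH1.

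Within the 4 lines of the single table that holds T84, A375, H1048 and RH30, 57 of 60 differences between DMSO libraries passed the test. The filter was set over all 4 lines, so a member entered through the lines where it is high, and in 4 of the 60 both lines were below 1 TPM. Of all genes, 86.6% were called between A375 and T84, 89.5% between H1048 and T84, 86% between RH30 and T84, 88.1% between H1048 and A375, 84.4% between RH30 and A375 and 87.5% between RH30 and H1048. CDH1 was lower in A375 than in T84 by a log2 difference of -7.57 (limma, adjusted p = 2.03e-39), and VIM was higher by 10.54 (adjusted p = 3.54e-30). The 3 differences that did not pass were CDH1 between RH30 and A375 (-0.0077 ± 0.058, adjusted p = 0.909), SPARC between H1048 and T84 (-0.024 ± 0.077, adjusted p = 0.772) and SNAI1 between RH30 and T84 (-0.19 ± 0.11, adjusted p = 0.0966).

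The 250 bases before the RefSeq start sites of FN1, CDH2 and VIM are printed because these 3 genes rose together in BxPC-3 after KLF5 knockout, described next. KLF5 is known to bind GC-rich elements of the KLF/SP type, and letters matching GGGNGNGG or its reverse complement CCNCNCCC are in capitals, with overlapping matches joined. The sequences are from RefSeq, build GRCh38.p14, 5′ to 3′ on the strand of the gene: FN1 chr2:215436069-215436318 (minus strand), CDH2 chr18:28177131-28177380 (minus strand) and VIM chr10:17227991-17228240 (plus strand).
FN1: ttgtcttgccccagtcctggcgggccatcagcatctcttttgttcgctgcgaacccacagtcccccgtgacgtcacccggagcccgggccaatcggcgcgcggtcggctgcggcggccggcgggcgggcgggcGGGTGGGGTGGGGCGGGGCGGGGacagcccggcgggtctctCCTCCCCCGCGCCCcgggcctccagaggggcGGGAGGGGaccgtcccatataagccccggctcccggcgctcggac
CDH2: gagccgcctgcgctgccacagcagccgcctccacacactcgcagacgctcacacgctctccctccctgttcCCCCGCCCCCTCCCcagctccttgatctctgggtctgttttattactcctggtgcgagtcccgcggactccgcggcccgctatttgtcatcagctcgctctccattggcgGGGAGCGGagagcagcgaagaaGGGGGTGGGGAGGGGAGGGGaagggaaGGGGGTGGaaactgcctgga
VIM: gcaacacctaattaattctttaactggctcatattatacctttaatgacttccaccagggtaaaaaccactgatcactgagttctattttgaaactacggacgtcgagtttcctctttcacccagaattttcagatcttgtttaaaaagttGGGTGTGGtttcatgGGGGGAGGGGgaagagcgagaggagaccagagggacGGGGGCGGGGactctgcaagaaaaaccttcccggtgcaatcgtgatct
The FN1 window holds 7 such matches, the CDH2 window 9 and the VIM window 5, counted with overlaps. At least 1 match was found in 53.4% of 35116 promoter windows of the same length and 2 or more in 33.4%. Neither CAGGTG nor CACCTG, the E-box letters that the SNAI and ZEB factors are known to bind, is in these 3 windows, and 17.5% of all windows hold 1 or more. Of the members, 6 had a RefSeq promoter in the table. The ZEB1 window held 1 E-box at 57 bases before the start and 3 KLF/SP matches, and those of ZEB2 and SPARC held neither. A match of letters is a description and does not show that a factor is bound.

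KLF5 knockout raised fibronectin and N-cadherin transcripts in experiment 2 of T3M-4 and both experiments of BxPC-3, the basal-like lines. Vimentin transcripts were raised in both experiments of BxPC-3. In AsPC-1, where VIM was already high, KLF5 knockout lowered VIM. A member was tested where its mean was at least 1 TPM, by limma on log2(TPM + 1), and called at an adjusted p (Benjamini-Hochberg over all genes tested) below 0.05. Over 8 comparisons 46 pairs of member and comparison were tested and 21 were called, 15 higher and 6 lower. VIM in T3M-4 experiment 2 (called) and CDH2 in T3M-4 experiment 1 (not called) passed the filter only through the sgKLF5 libraries, and without them 20 of 44 were called, 14 higher and 6 lower, a count chosen after the values were seen. Of all genes, the share called was 25.9% and 27.8% in AsPC-1 experiments 1 and 3, 3.94% in SUIT-2, 16.2% in CFPAC-1, 5.72% and 34.6% in T3M-4 experiments 1 and 2, and 16.2% and 34.6% in BxPC-3 experiments 1 and 2. Members called numbered 5 of 6 in T3M-4 experiment 2, 6 of 7 in BxPC-3 experiment 1 and 4 of 6 in BxPC-3 experiment 2, which were above those shares. They numbered 3 of 5 and 2 of 5 in AsPC-1, 1 of 7 in CFPAC-1, 0 of 6 in T3M-4 experiment 1 and 0 of 4 in SUIT-2. In T3M-4 experiment 1 the sgKLF5 library 2 stood apart as a whole, with a median ratio over genes to the mean of its experiment of 0.563 against 0.987 to 1.14 in the other sgKLF5 libraries. Without it 3 of 6 members were called, where 37% of all genes were. They were FN1 (log2 fold change 2.94 ± 0.34, adjusted p = 0.000268), SNAI1 (log2 fold change 1.11 ± 0.18, adjusted p = 0.00187) and SNAI2, which fell (log2 fold change -1.17 ± 0.16, adjusted p = 0.000841). After scaling by the median of ratios 3 were called as well, 2 higher and 1 lower. In SUIT-2 the sgRosa library 1 stood apart in the same way (0.645 against 1.02 to 1.09), and without it 0 of 4 members and 9.82% of all genes were called. In T3M-4 experiment 2 the sgRosa library 4 had 0.773, and without it 5 of 6 members were called, with SNAI2 lower (log2 fold change -0.49 ± 0.10, adjusted p = 0.00102) in place of CDH1. At an unadjusted p below 0.05, 2 members (SNAI2 and VIM) passed in SUIT-2 and 3 (FN1, SNAI2 and VIM) in T3M-4 experiment 1.

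FN1 showed the largest change of any member in the knockout comparisons. In T3M-4 experiment 2 the sgRosa libraries had 11.02, 13.3, 12.05 and 5.35 TPM and the sgKLF5 libraries 105, 102, 106 and 96.4 TPM. The groups lay far apart and FN1 rose from 10.4 ± 3.51 TPM (SD, n = 4) to 102 ± 4.36 TPM (n = 4) (log2 fold change 3.24 ± 0.19, adjusted p = 5.67e-10). In BxPC-3 experiment 1 the 2 sgRosa libraries had 8.62 and 8.07 TPM and the sgKLF5 libraries 69.9, 59.6, 35.3 and 52.98 TPM (log2 fold change 2.53 ± 0.23, adjusted p = 5.72e-05). In BxPC-3 experiment 2 the values were 6.37, 6.28, 10.7 and 11.5 TPM and 22.8, 28.5, 33.3 and 29.9 TPM (log2 fold change 1.64 ± 0.21, adjusted p = 1.27e-05). In all 3 comparisons every knockout library exceeded every control library. In T3M-4 experiment 1, sgRosa had 4.397 and 5.48 TPM and sgKLF5 29.8, 7.49, 54.5 and 53.2 TPM, and the groups did not overlap, but the test was passed without library 2, the one with 7.49 TPM, and not with it (log2 fold change 2.33 ± 0.75, adjusted p = 0.113). In simulated data of that comparison, with 12512 genes, the test recovered 8 of 100 genes changed by 1 log2 unit and 70 of 100 changed by 2. In the other comparisons simulated it recovered 93 to 100 of 100. The simulated noise was independent between libraries and held no library that stood apart as a whole, so nothing is read from it for FN1. FN1 was below the filter in AsPC-1 and SUIT-2. In AsPC-1 experiment 1 the sgKLF5 library 6 stood apart with 3.78 TPM, where the median of that group was 0.184 TPM. In CFPAC-1 the change was not called (log2 fold change 0.31 ± 0.25, adjusted p = 0.407).

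CDH2 moved with FN1 in the same comparisons. In T3M-4 experiment 2 it was 1.201, 1.63, 0.984 and 0.98 TPM in sgRosa and 4.36, 4.399, 4.16 and 3.94 TPM in sgKLF5 (log2 fold change 1.26 ± 0.11, adjusted p = 5.91e-08). In BxPC-3 experiment 1 it was 2.62 and 2.17 TPM in sgRosa and 14.4, 13.9, 7.84 and 10.9 TPM in sgKLF5 (log2 fold change 1.88 ± 0.23, adjusted p = 0.000329). In BxPC-3 experiment 2 it was 3.67, 3.24, 4.07 and 3.199 TPM in sgRosa and 12.2, 9.24, 9.47 and 8.18 TPM in sgKLF5 (log2 fold change 1.24 ± 0.14, adjusted p = 2.37e-06). The groups did not overlap in any of the 3, although the level reached in T3M-4 stayed below that of the CFPAC-1 controls. In CFPAC-1 itself CDH2 went from 46.6 to 54.1 TPM with overlapping groups (log2 fold change 0.24 ± 0.13, adjusted p = 0.228).

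VIM rose in BxPC-3 and fell in AsPC-1. In T3M-4 experiment 2 the sgRosa libraries had 0.952, 0.95, 0.665 and 1.28 TPM and the sgKLF5 libraries 3.53, 2.70, 3.501 and 2.52 TPM (log2 fold change 1.05 ± 0.14, adjusted p = 1.13e-05). It passed the filter there only through the sgKLF5 libraries, so these values are a description. In BxPC-3 experiment 1 VIM rose from 49.2 ± 0.51 TPM (SD, n = 2) to 202 ± 19.3 TPM (n = 4) (log2 fold change 2.01 ± 0.11, adjusted p = 2.49e-06), and in experiment 2 from 35.2 ± 5.36 TPM (SD, n = 4) to 57.4 ± 3.33 TPM (n = 4) (log2 fold change 0.70 ± 0.10, adjusted p = 5.25e-05). No knockout library overlapped the controls in these comparisons, and the rise in BxPC-3 was smaller in experiment 2 than in experiment 1 (log2 difference -1.31 ± 0.16, adjusted p = 3.86e-06). In AsPC-1 experiment 1 the sgRosa libraries had 4222 and 4160.0 TPM and the 6 sgKLF5 libraries 2891 at the lowest, 3014 at the median and 3088 TPM at the highest, all of them lower (log2 fold change -0.48 ± 0.043, adjusted p = 2.30e-05). In AsPC-1 experiment 3 the fall was small, with 3 of 4 knockout libraries below every control (log2 fold change -0.19 ± 0.061, adjusted p = 0.0279). The call was lost without sgKLF5 library 1 or 2 or sgRosa library 1 or 2 (log2 fold change -0.17 to -0.14, adjusted p 0.0682 to 0.122). It was also lost with no filter on low values, after scaling by the median of ratios and when fitted on its own pair of groups. In T3M-4 experiment 1 the values ran the other way from experiment 2, 9.81 and 3.47 TPM in sgRosa and 1.57, 1.17, 3.42 and 3.02 TPM in sgKLF5, uncalled within that experiment (log2 fold change -1.14 ± 0.49, adjusted p = 0.194). The difference between the experiments (log2 difference 2.19 ± 0.40, limma, adjusted p = 0.00202) uses the same experiment 2 values and is a description too.

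**Figure D2:**
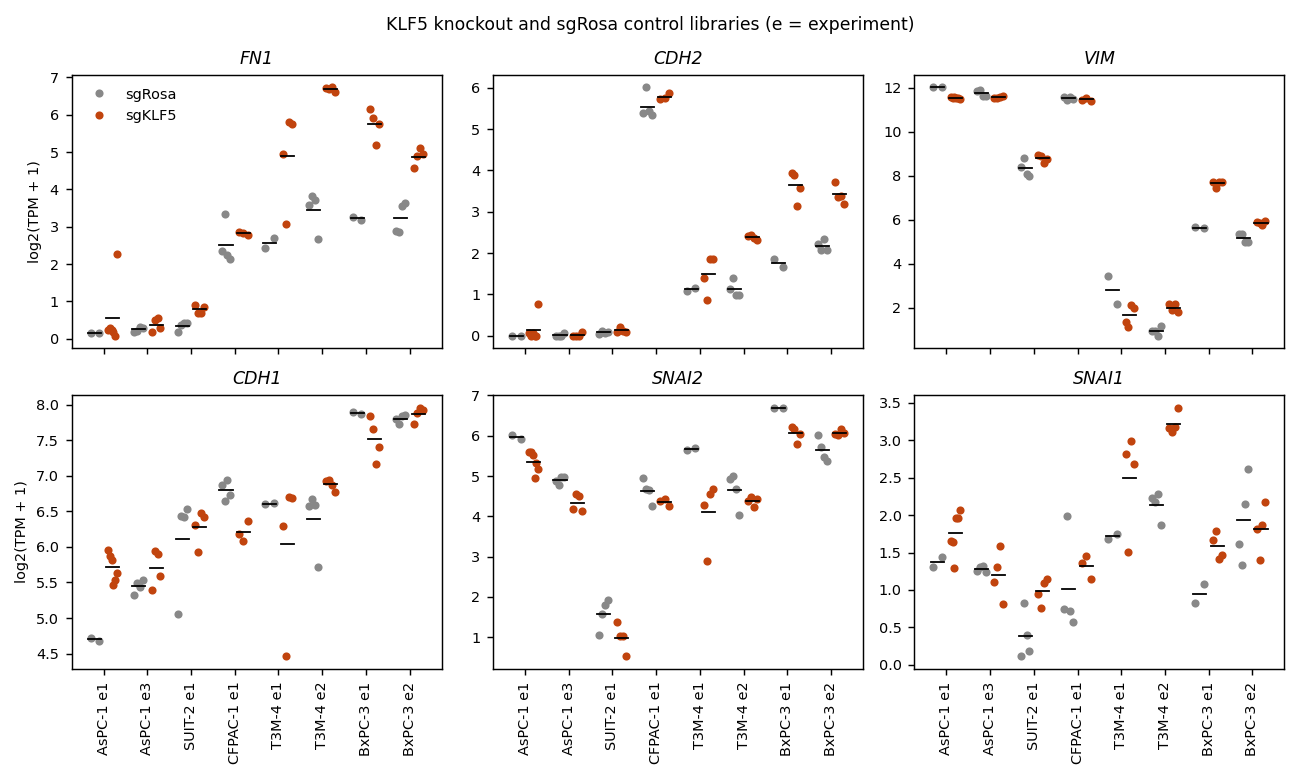
FN1, CDH2, VIM, CDH1, SNAI2 and SNAI1 in every sgRosa (grey) and sgKLF5 (orange) library, as log2(TPM + 1) on the y axis, by line and experiment (e) on the x axis. Points are libraries and bars group means. FN1 and CDH2 are separated from control in T3M-4 experiment 2 and in both BxPC-3 experiments, and 1 AsPC-1 experiment 1 library stands apart from its group in FN1 and CDH2.

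SPARC passed the filter in BxPC-3 experiment 1 only, where it was 6.41 and 6.78 TPM in sgRosa and 42.4, 36.3, 30.8 and 42.2 TPM in sgKLF5 (log2 fold change 2.35 ± 0.16, adjusted p = 9.39e-06). In experiment 2 of the same line it was 0.129, 0.349, 0.346 and 0.347 TPM in sgRosa and 0.565, 0.49, 0.557 and 0.714 TPM in sgKLF5, below the filter. SPARC entered the test between experiments through experiment 1. Its difference there (log2 difference -2.05 ± 0.24, limma, adjusted p = 2.25e-06) is therefore a description. TWIST1 was 0.241 and 0.108 TPM in sgRosa and 2.29, 1.44, 1.27 and 1.605 TPM in sgKLF5 of experiment 1, and was listed at 0 in both groups of experiment 2. Both BxPC-3 experiments are labelled as the same line, but experiment 1 libraries held COL1A2 collagen transcripts that experiment 2 libraries nearly lacked. This did not hold for COL1A1, with means of 4.53 TPM in sgRosa and 3.54 TPM in sgKLF5 of experiment 2. The collagen gene COL3A1 had means of 0.0851 TPM in sgRosa and 2.71 TPM in sgKLF5 of experiment 2. In experiment 1 the COL3A1 means were 0.639 and 7.35 TPM in the same order. COL1A2, a fibrillar collagen chain, was 5.49 and 6.46 TPM in sgRosa, 4.15 and 3.46 TPM in sgRpa3 and 41.02, 30.3, 25.6 and 37.5 TPM in sgKLF5 of experiment 1, and at most 0.163 TPM in experiment 2. The summed level of 7 fibroblast markers (COL1A1, COL1A2, DCN, LUM, PDGFRA, PDGFRB and THY1) was 21.1 to 23.3 TPM in sgRosa and 70.4 to 114 TPM in sgKLF5 of experiment 1, with 3 of 7 at 1 TPM or more in each group. It was 5.24 to 8.701 TPM in sgRosa and 4.81 to 6.85 TPM in sgKLF5 of experiment 2. Of the 7 markers, DCN and LUM were at 0.404 and 0.512 TPM at most in the sgKLF5 libraries of experiment 1. PDGFRA had means of 2.89 TPM in sgRosa and 1.56 TPM in sgKLF5 there. The part of these markers and of COL3A1 in the values of SPARC, TWIST1, VIM, FN1 and CDH2 was not tested in either experiment.

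Of the repressors, SNAI1 rose in T3M-4 experiment 2 and BxPC-3 experiment 1, and SNAI2 changed in opposite directions. In T3M-4 experiment 2 SNAI1 was 3.68, 3.52, 3.87 and 2.66 TPM in sgRosa and 7.998, 7.62, 8.04 and 9.84 TPM in sgKLF5, without overlap (log2 fold change 1.08 ± 0.13, adjusted p = 5.41e-06). In BxPC-3 experiment 1 SNAI1 went from 0.939 to 2.01 TPM (log2 fold change 0.63 ± 0.17, adjusted p = 0.0335). This rise was lost without sgKLF5 library 1, 2 or 4 or sgRosa library 1 or 2 (log2 fold change 0.51 to 0.76, adjusted p 0.0548 to 0.307). In BxPC-3 experiment 2 SNAI1 was not called (log2 fold change -0.12 ± 0.25, adjusted p = 0.758). SNAI2 fell in AsPC-1 experiment 3, where sgRosa had 28.5, 26.6, 30.5 and 30.4 TPM and sgKLF5 17.04, 22.5, 21.8 and 16.5 TPM (log2 fold change -0.56 ± 0.091, adjusted p = 9.60e-05). It also fell in AsPC-1 experiment 1 from 61.7 to 40.6 TPM (log2 fold change -0.61 ± 0.16, adjusted p = 0.0202). This fall was lost without sgRosa library 1 or 2 (log2 fold change -0.66 to -0.56, adjusted p 0.0954 to 0.13). In BxPC-3 SNAI2 fell in experiment 1 from 103 to 66.02 TPM (log2 fold change -0.64 ± 0.11, adjusted p = 0.00353) and rose in experiment 2 from 49.7 to 66.3 TPM (log2 fold change 0.43 ± 0.15, adjusted p = 0.0379). The rise in experiment 2 was lost without sgKLF5 library 1, 2, 3 or 4 or sgRosa library 2, 3 or 4 (log2 fold change 0.34 to 0.45, adjusted p 0.0529 to 0.134). It also failed the test with no filter on low values. The difference between the BxPC-3 experiments passed the test (log2 difference 1.06 ± 0.23, adjusted p = 0.00197). ZEB1 was tested in the 4 comparisons of AsPC-1, SUIT-2 and CFPAC-1 and passed in none, with log2 fold changes between -0.49 and 0.095 and 0 of 4 at an unadjusted p below 0.05. ZEB2 was below the filter throughout. With a pseudocount of 0.1 the log2 fold change of SNAI1 in BxPC-3 experiment 1 was 1.03 and that of VIM in T3M-4 experiment 2 1.59, and with the replicate block that of SNAI2 in AsPC-1 experiment 1 was -0.37.

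CDH1 did not change in one direction. In AsPC-1 experiment 1 the sgRosa libraries had 25.4 and 24.7 TPM and the 6 sgKLF5 libraries 43.3 at the lowest, 52.2 at the median and 61.4 TPM at the highest, all above control (log2 fold change 1.01 ± 0.13, adjusted p = 0.000285). In AsPC-1 experiment 3 it was 39.2, 43.9, 42.4 and 45.5 TPM in sgRosa and 41.05, 60.4, 58.6 and 47.3 TPM in sgKLF5, with overlap (log2 fold change 0.26 ± 0.12, adjusted p = 0.123), and the difference between the experiments passed the test (log2 difference -0.76 ± 0.19, adjusted p = 0.0157). That call was lost without sgRosa of experiment 1 library 1 or 2 (log2 difference -0.78 to -0.73, adjusted p 0.0629 to 0.127). In CFPAC-1 CDH1 fell from 116, 98.95, 121 and 105 TPM in sgRosa to 71.5, 66.7 and 81.4 TPM in the 3 sgKLF5 libraries, without overlap (log2 fold change -0.59 ± 0.099, adjusted p = 0.00385). In T3M-4 experiment 2 CDH1 rose beside FN1, from 85.4 to 117 TPM (log2 fold change 0.49 ± 0.17, adjusted p = 0.0311). The call was lost without sgKLF5 library 1, 2 or 3 or sgRosa library 4 (log2 fold change 0.27 to 0.49, adjusted p 0.058 to 0.0796). It did not pass either with no filter on low values and when fitted on its own pair of groups. In BxPC-3 CDH1 went from 235 to 185 TPM in experiment 1 and from 222 to 234 TPM in experiment 2, and neither passed (adjusted p = 0.176 and 0.697). In SUIT-2 no member passed, and sgRosa library 1, which stood apart as a whole, had 32.2 TPM of CDH1 where the other 3 had 85.9, 84.3 and 91.4 TPM.

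Knockout changes of 13 of 36 tested pairs differed between experiments of a line, 7 higher and 6 lower in the later experiment (6 and 9 after scaling by the median of ratios). Of all genes 4.28% differed for KLF5 knockout in AsPC-1, 17.4% in T3M-4 and 16.7% in BxPC-3, 18.2% for RUVBL1 knockout in AsPC-1, and 0.107% in T3M-4 and 7.77% in BxPC-3 for RPA3 knockout. Besides those already given for KLF5, VIM fell less in AsPC-1 experiment 3 than in experiment 1 (log2 difference 0.30 ± 0.082, adjusted p = 0.0359), and in T3M-4 CDH2 (0.88 ± 0.27, adjusted p = 0.0327) and SNAI2 (1.29 ± 0.42, adjusted p = 0.0412) were higher in experiment 2 relative to experiment 1. The VIM call was lost without sgRosa of experiment 1 library 1 or 2 or sgKLF5 of experiment 1 library 6 or sgKLF5 of experiment 3 library 3 or 4 or sgRosa of experiment 3 library 3 or 4 (log2 difference 0.25 to 0.31, adjusted p 0.0547 to 0.16). The same was seen with no filter on low values, after scaling by the median of ratios and with the replicate number as a block. The CDH2 call was lost without sgKLF5 of experiment 1 library 1 or sgRosa of experiment 1 library 1 or 2 or sgKLF5 of experiment 2 library 1, 2 or 3 or sgRosa of experiment 2 library 3 or 4 (log2 difference 0.84 to 0.92, adjusted p 0.0512 to 0.141). It was lost as well with a pseudocount of 0.1. CDH2 passed the filter in T3M-4 experiment 1 only through the sgKLF5 libraries, so its difference is a description. The SNAI2 call was lost without sgRosa of experiment 1 library 1 or 2 or sgKLF5 of experiment 2 library 1, 2, 3 or 4 or sgRosa of experiment 2 library 3 or 4 (log2 difference 1.08 to 1.34, adjusted p 0.0558 to 0.155). It was also lost with no filter on low values. Experiments 1 and 2 of T3M-4 and of BxPC-3 had 2 and 4 sgRosa libraries. For RPA3 knockout, 0 members of T3M-4 were called and 0 had an unadjusted p below 0.05. In BxPC-3 the log2 differences were -0.79 ± 0.19, adjusted p = 0.0158 for VIM, -0.96 ± 0.27, adjusted p = 0.0308 for SNAI2 and 1.05 ± 0.29, adjusted p = 0.029 for SPARC. SPARC was below the filter in experiment 2, so its difference is a description. For VIM the call was lost without sgRosa of experiment 1 library 1 or 2 or sgRpa3 of experiment 1 library 1 or sgRpa3 of experiment 2 library 1 (log2 difference -0.80 to -0.66, adjusted p 0.0592 to 0.106). For SNAI2 the call was lost without sgRosa of experiment 1 library 1 or 2 or sgRpa3 of experiment 1 library 1 or 2 or sgRosa of experiment 2 library 1 or 2 or sgRpa3 of experiment 2 library 1 or 2 (log2 difference -1.01 to -0.84, adjusted p 0.0543 to 0.123). It also failed the test with no filter on low values. For SPARC the call was lost without sgRosa of experiment 1 library 1 or 2 or sgRpa3 of experiment 1 library 2 or sgRosa of experiment 2 library 1 or sgRpa3 of experiment 2 library 1 or 2 (log2 difference 0.90 to 1.14, adjusted p 0.057 to 0.132). With a pseudocount of 0.1 the SPARC difference was 1.89.

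**Figure D3:**
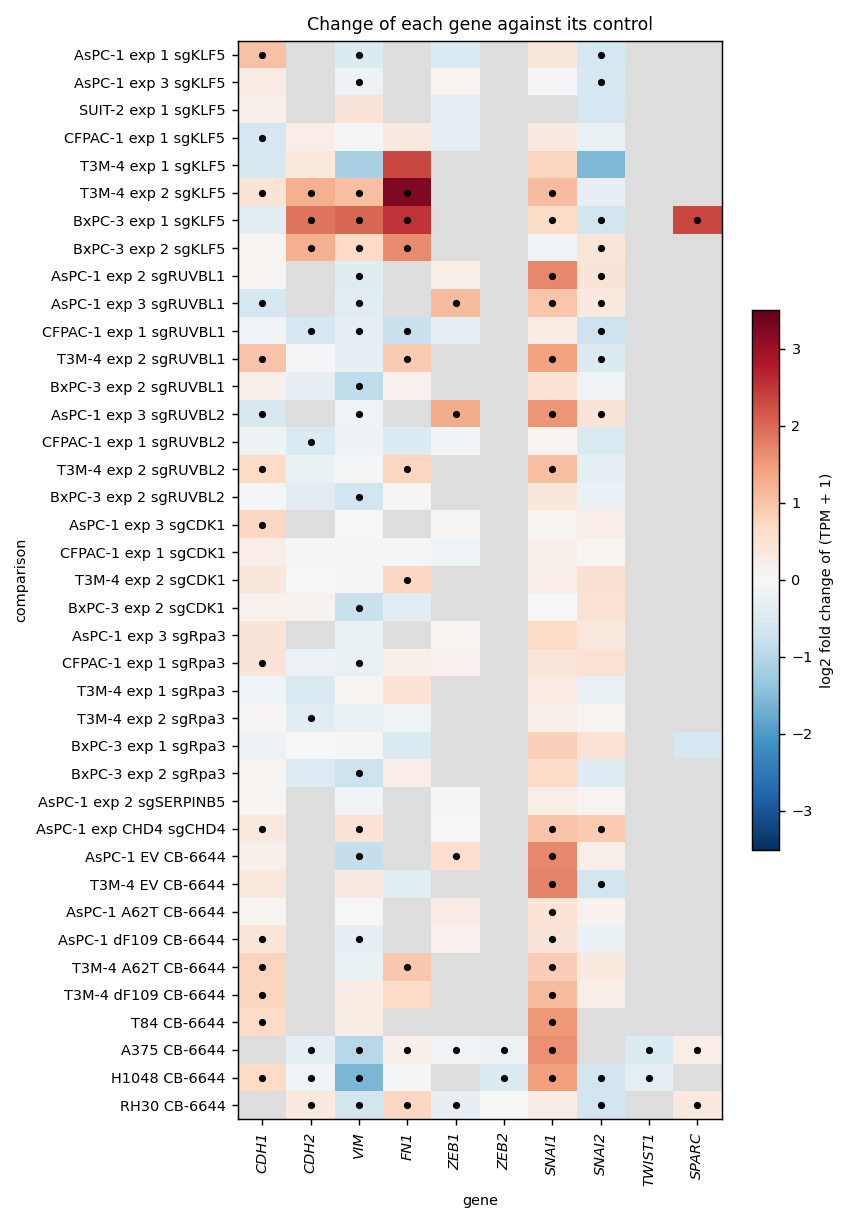
Log2 fold change of log2(TPM + 1) of each gene (x axis) against its sgRosa or DMSO control in each knockout or CB-6644 comparison (y axis), from lower (blue) to higher (red). Dots mark an adjusted p below 0.05 in limma and grey cells had a mean below 1 TPM, so the columns of ZEB2, TWIST1 and SPARC are mostly grey in the PDAC lines.

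After RUVBL1 or RUVBL2 knockout SNAI1 was raised in AsPC-1 and T3M-4, VIM was lowered in AsPC-1, in BxPC-3 and, for RUVBL1, in CFPAC-1 (a call lost after scaling by the median of ratios), and CDH1 fell in AsPC-1 experiment 3, but not in experiment 2, and rose in T3M-4. Over 9 comparisons 27 of 53 tested pairs were called, 14 higher and 13 lower. SNAI1 in AsPC-1 experiment 2 passed the filter only through the sgRUVBL1 libraries, and without it the count was 26 of 52, 13 in each direction. The shares of all genes called after RUVBL1 knockout were 55.8% and 51.9% in AsPC-1 experiments 2 and 3, 43.8% in CFPAC-1, 60.5% in T3M-4 and 16% in BxPC-3. After RUVBL2 knockout they were 43.2% in AsPC-1, 12.1% in CFPAC-1, 54.5% in T3M-4 and 9.76% in BxPC-3. Members called after RUVBL1 knockout numbered 3 of 5 and 5 of 5 in AsPC-1, 4 of 7 in CFPAC-1, 4 of 6 in T3M-4 and 1 of 6 in BxPC-3. After RUVBL2 knockout they numbered 5 of 5, 1 of 7, 3 of 6 and 1 of 6 in the same order of lines. In AsPC-1 experiment 3 all 5 tested members were called, above the share of all genes, and the other counts were close to that share.

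SNAI1 was higher in 5 of 9 comparisons, all in AsPC-1 or T3M-4. In AsPC-1 experiment 2 sgRosa had 1.12, 0.696, 0.3 and 1.13 TPM and sgRUVBL1 4.18, 4.26, 5.06 and 5.499 TPM (log2 fold change 1.69 ± 0.15, limma, adjusted p = 2.23e-07). SNAI1 passed the filter there only through the sgRUVBL1 libraries, so these values are a description. In AsPC-1 experiment 3 sgRosa had 1.39, 1.48, 1.49 and 1.37 TPM, sgRUVBL1 5.505, 5.29, 3.71 and 1.62 TPM and sgRUVBL2 5.63, 5.04, 5.92 and 8.08 TPM. Every knockout library lay above the controls in both experiments (experiment 3: log2 fold change 0.96 ± 0.23, adjusted p = 0.00179 for RUVBL1, and log2 fold change 1.54 ± 0.23, adjusted p = 4.74e-05 for RUVBL2). In T3M-4 SNAI1 was 9.58, 12.1 and 10.3 TPM after RUVBL1 knockout (log2 fold change 1.4 ± 0.14, adjusted p = 5.06e-07) and 6.25, 9.13, 9.97 and 7.69 TPM after RUVBL2 knockout (log2 fold change 1.05 ± 0.13, adjusted p = 4.66e-06), again without overlap. The changes in CFPAC-1 and BxPC-3 were not called, at log2 fold changes of 0.26 and 0.099 in CFPAC-1 and 0.47 and 0.39 in BxPC-3, with adjusted p from 0.231 to 0.876. With a pseudocount of 0.1 the log2 fold change in AsPC-1 experiment 2 was 2.54.

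ZEB1 rose in AsPC-1 experiment 3, from 10.1, 10.2, 14.3 and 8.22 TPM in sgRosa to 30.8, 30.3, 22.1 and 15.7 TPM after RUVBL1 knockout and 23.3, 31.2, 26.3 and 28.6 TPM after RUVBL2 knockout. All 8 knockout libraries were above the controls (log2 fold change 1.11 ± 0.18, adjusted p = 4.70e-05, and log2 fold change 1.29 ± 0.18, adjusted p = 2.25e-05). In AsPC-1 experiment 2, where the sgRosa level was higher, ZEB1 was 14.2, 12.9, 19.9 and 14.5 TPM in sgRosa and 15.6, 17.9, 18.2 and 19.05 TPM in sgRUVBL1, with overlap and no call (log2 fold change 0.20 ± 0.13, adjusted p = 0.183). The difference between these experiments passed the test (log2 difference 0.91 ± 0.23, adjusted p = 0.00787). SNAI2 rose in AsPC-1, from 55.5 to 76.8 TPM in experiment 2 (log2 fold change 0.46 ± 0.097, adjusted p = 0.000902) and from 28.99 to 39.9 TPM after RUVBL2 knockout in experiment 3 (log2 fold change 0.45 ± 0.091, adjusted p = 0.000785). After RUVBL1 knockout in experiment 3 it reached 36.7 TPM (log2 fold change 0.33 ± 0.091, adjusted p = 0.00516). The call was lost after scaling by the median of ratios. It fell after RUVBL1 knockout in CFPAC-1, from 24.1 to 13.8 TPM (log2 fold change -0.75 ± 0.14, adjusted p = 0.000639), and in T3M-4 from 25.1 to 17.2 TPM with overlapping groups (log2 fold change -0.47 ± 0.17, adjusted p = 0.0223). The T3M-4 call was lost without sgRosa library 1 or 2 or sgRUVBL1 library 1 or 3 (log2 fold change -0.47 to -0.35, adjusted p 0.053 to 0.0757). It did not pass either when fitted on its own pair of groups. After scaling by the median of ratios the log2 fold change of SNAI2 was -0.75 in T3M-4 after RUVBL1 knockout and 0.28 in AsPC-1 after RUVBL2 knockout.

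VIM was lower in 6 of 9 comparisons and higher in none. In AsPC-1 experiment 2 it was 3535, 3782, 3847 and 3964 TPM in sgRosa and 2777, 2832, 2744 and 2809 TPM in sgRUVBL1, without overlap (log2 fold change -0.44 ± 0.041, adjusted p = 3.32e-07). In BxPC-3 it fell from 40.01, 39.7, 30.7 and 30.4 TPM in sgRosa to 20.4, 17.7, 20.2 and 16.3 TPM in sgRUVBL1 (log2 fold change -0.88 ± 0.10, adjusted p = 5.74e-05) and 19.6, 22.8 and 23.1 TPM in sgRUVBL2 (log2 fold change -0.66 ± 0.11, adjusted p = 0.00277). This was the opposite direction from KLF5 knockout in the same experiment, which shares the sgRosa libraries. The RUVBL2 call was lost when fitted on its own pair of groups. In AsPC-1 experiment 3 VIM fell after RUVBL1 knockout (log2 fold change -0.37 ± 0.061, adjusted p = 6.26e-05) and after RUVBL2 knockout (log2 fold change -0.16 ± 0.061, adjusted p = 0.0425). The RUVBL2 call in AsPC-1 was lost without sgRosa library 1 or 2 or sgRUVBL2 library 1, 2 or 4 (log2 fold change -0.16 to -0.11, adjusted p 0.0626 to 0.167). The same was seen with no filter on low values, when fitted on its own pair of groups and with the replicate number as a block. In CFPAC-1 it fell after RUVBL1 knockout (log2 fold change -0.35 ± 0.06, adjusted p = 0.000353). The CFPAC-1 call was lost after scaling by the median of ratios. Scaled, VIM changed by -0.33 in AsPC-1 after RUVBL2 knockout and by -0.13 in CFPAC-1 on the log2 scale.

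CDH1, CDH2 and FN1 were called in different directions, and no test between PDAC lines was run. CDH1 fell in AsPC-1 experiment 3, from 39.2, 43.9, 42.4 and 45.5 TPM in sgRosa to 27.02, 25.6, 31.3 and 26.3 TPM in sgRUVBL1 (log2 fold change -0.62 ± 0.12, adjusted p = 0.000341) and 29.8, 23.02, 30.9 and 31.4 TPM in sgRUVBL2 (log2 fold change -0.56 ± 0.12, adjusted p = 0.0011). All knockout libraries were below the controls there, but in AsPC-1 experiment 2 CDH1 went from 16.8 to 18.1 TPM and was not called (log2 fold change 0.11 ± 0.12, adjusted p = 0.463), a difference between experiments that passed the test (log2 difference -0.72 ± 0.17, adjusted p = 0.00518). In T3M-4 CDH1 rose instead, from 93.96, 101, 94.9 and 51.8 TPM in sgRosa to 156, 190.3 and 155 TPM in sgRUVBL1 (log2 fold change 1.00 ± 0.18, adjusted p = 0.000178) and 101, 164, 145 and 141 TPM in sgRUVBL2 (log2 fold change 0.71 ± 0.17, adjusted p = 0.00194), where 1 of the 4 RUVBL2 libraries overlapped the controls. FN1 rose in T3M-4 as well, from 10.4 to 19.5 TPM after RUVBL1 knockout (log2 fold change 0.91 ± 0.21, adjusted p = 0.00129) and to 17.8 TPM after RUVBL2 knockout (log2 fold change 0.76 ± 0.19, adjusted p = 0.00313). Without sgRosa library 4, which had the lowest FN1, the RUVBL2 log2 fold change was 0.50, adjusted p = 0.00274. In CFPAC-1, the PDAC line with the most CDH2, CDH2 fell from 40.7, 63.9, 42.2 and 39.7 TPM in sgRosa to 26.9, 34.7, 28.9 and 31.2 TPM in sgRUVBL1 (log2 fold change -0.58 ± 0.12, adjusted p = 0.00173) and 31.2 and 32.5 TPM in the 2 sgRUVBL2 libraries (log2 fold change -0.51 ± 0.15, adjusted p = 0.0391). The RUVBL2 call was lost without sgRosa library 3 or sgRUVBL2 library 1 or 2 (log2 fold change -0.55 to -0.48, adjusted p 0.0512 to 0.205). It was lost as well with no filter on low values, after scaling by the median of ratios and when fitted on its own pair of groups. FN1 fell in CFPAC-1 after RUVBL1 knockout, from 5.09 to 2.43 TPM (log2 fold change -0.78 ± 0.23, adjusted p = 0.013). The FN1 fall was lost without sgRUVBL1 library 1 (log2 fold change -0.62, adjusted p = 0.0521). It was also lost when fitted on its own pair of groups. Without sgRosa library 2, which stood apart with the most FN1, the log2 fold change was -0.51, adjusted p = 0.0351. Scaled, the log2 fold change of CDH2 in CFPAC-1 after RUVBL1 knockout was -0.36.

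After CDK1 or RPA3 knockout few members were called, and their number was close to the shares of all genes called. Over 10 comparisons 7 of 61 tested pairs were called, 3 higher and 4 lower. Of all genes 16.7%, 0%, 16.8% and 5.82% were called after CDK1 knockout in AsPC-1, CFPAC-1, T3M-4 and BxPC-3, and 0.654% and 11.6% after RPA3 knockout in AsPC-1 and CFPAC-1. For RPA3 the shares were 0% and 24.6% in T3M-4 experiments 1 and 2, and 0.307% and 20.8% in BxPC-3 experiments 1 and 2. Each of these groups had 2 libraries. Where no gene was called, in CFPAC-1 after CDK1 knockout and in T3M-4 experiment 1 after RPA3 knockout, 1477 and 189 genes had an unadjusted p below 0.05 and 0 of the members did. No member was called in AsPC-1 or BxPC-3 experiment 1 after RPA3 knockout, with 4 and 3 members at an unadjusted p below 0.05.

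VIM fell in BxPC-3 experiment 2 after CDK1 knockout, to 20.9 and 19.3 TPM (log2 fold change -0.77 ± 0.13, adjusted p = 0.00126), and after RPA3 knockout, to 18.9 and 22.2 TPM (log2 fold change -0.74 ± 0.13, adjusted p = 0.000725), against 35.2 ± 5.36 TPM (SD, n = 4) in sgRosa. These levels lay in the range reached after RUVBL1 and RUVBL2 knockout. CDH1 rose after CDK1 knockout in AsPC-1, from 42.7 to 72.5 TPM (log2 fold change 0.74 ± 0.15, adjusted p = 0.00184), where RUVBL1 and RUVBL2 knockout lowered it. The CDK1 call was lost without sgCDK1 library 2 (log2 fold change 0.55, adjusted p = 0.0808). The other 4 calls were CDH1 in CFPAC-1 after RPA3 knockout (log2 fold change 0.46 ± 0.11, adjusted p = 0.0155), VIM in the same comparison (log2 fold change -0.27 ± 0.073, adjusted p = 0.025), FN1 in T3M-4 after CDK1 knockout (log2 fold change 0.73 ± 0.24, adjusted p = 0.0427) and CDH2 in T3M-4 experiment 2 after RPA3 knockout (log2 fold change -0.37 ± 0.13, adjusted p = 0.0481). CDH1 was lost without sgRpa3 library 1 or 2 (log2 fold change 0.43 to 0.49, adjusted p 0.0963 to 0.17). It also failed the test when fitted on its own pair of groups. VIM was lost without sgRpa3 library 1 or 2 (log2 fold change -0.31 to -0.24, adjusted p 0.132 to 0.202). It did not pass either when fitted on its own pair of groups and with the replicate number as a block. FN1 was lost without sgCDK1 library 1 or 2 or sgRosa library 1 (log2 fold change 0.61 to 0.85, adjusted p 0.0561 to 0.255). The same was seen with no filter on low values, when fitted on its own pair of groups and with the replicate number as a block. Without sgRosa library 4 the FN1 log2 fold change was 0.47, adjusted p = 0.0402. CDH2 was lost without sgRosa library 1 or 2 or sgRpa3 library 1 or 2 (log2 fold change -0.45 to -0.28, adjusted p 0.0813 to 0.278). It was lost as well when fitted on its own pair of groups. With a pseudocount of 0.1 the log2 fold change of CDH2 was -0.70.

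When each knockout was set against the mean of the CDK1 and RPA3 knockouts of its experiment, 35 of 72 tested pairs were called, 17 higher and 18 lower (19 and 13 after median-of-ratios scaling). The shares of all genes called for KLF5, RUVBL1 and RUVBL2 were 34.7%, 51.2% and 42.1% in AsPC-1, and 43.7%, 55.4% and 23.8% in CFPAC-1. They were 28.4%, 41.8% and 38.2% in T3M-4, and 46.8%, 20.4% and 20.7% in BxPC-3. After KLF5 knockout FN1, CDH2 and VIM were above the essential-gene knockouts in T3M-4, with log2 differences of 2.94 ± 0.19, adjusted p = 2.53e-09 for FN1, 1.45 ± 0.11, adjusted p = 1.19e-08 for CDH2 and 1.19 ± 0.14, adjusted p = 3.22e-06 for VIM. VIM passed the filter there only through the sgKLF5 libraries (34 of 71 without it), and with a pseudocount of 0.1 its difference was 1.85. In BxPC-3 the differences were 1.72 ± 0.21, adjusted p = 4.12e-06 for FN1, 1.4 ± 0.14, adjusted p = 2.93e-07 for CDH2 and 1.46 ± 0.10, adjusted p = 6.68e-09 for VIM. In AsPC-1 RUVBL2 knockout stood above them in ZEB1 (1.24 ± 0.18, adjusted p = 3.15e-05) and SNAI1 (1.14 ± 0.23, adjusted p = 0.000673), and below them in CDH1 (-1.16 ± 0.12, adjusted p = 1.22e-06), and RUVBL1 knockout stood above them in ZEB1 (1.06 ± 0.18, adjusted p = 7.22e-05) and below them in CDH1 (-1.22 ± 0.12, adjusted p = 2.78e-07). SNAI1 in T3M-4 was above them after RUVBL1 knockout (1.17 ± 0.14, adjusted p = 8.17e-06) and RUVBL2 knockout (0.82 ± 0.13, adjusted p = 0.000129). SNAI2 was lower in 7 of 12 comparisons, in AsPC-1 after KLF5 knockout and in CFPAC-1 and T3M-4 after each knockout. It was higher in 1, BxPC-3 after KLF5 knockout. CDH1 was lower in 6 of 12, after each knockout in AsPC-1 and CFPAC-1. It was higher in 2, T3M-4 after RUVBL1 and RUVBL2 knockout. Leaving out 1 library ended the SNAI2 call in BxPC-3 and the CDH1 calls after KLF5 knockout in AsPC-1 and RUVBL2 knockout in T3M-4. It also ended the CDH1 and SNAI2 calls after RUVBL2 knockout in CFPAC-1. Scaling by the median of ratios ended SNAI2 after KLF5 knockout and CDH1 after RUVBL1 knockout in CFPAC-1. In BxPC-3 no member differed between RUVBL1 or RUVBL2 knockout and the essential-gene knockouts in limma, and 0 had an unadjusted p below 0.05, VIM included (-0.12 ± 0.10, adjusted p = 0.449 for RUVBL1, and 0.098 ± 0.11, adjusted p = 0.563 for RUVBL2).

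In AsPC-1, knockout of CHD4, the ATPase of the NuRD chromatin-remodelling complex, raised 4 of 5 tested members, and knockout of SERPINB5, which encodes the serpin maspin, changed none. Of all genes 50% and 0.0343% were called, and 1 member (VIM) had an unadjusted p below 0.05 after SERPINB5 knockout. SNAI2 was 41.2, 40.04, 37.6 and 34.3 TPM in sgRosa and 76.8, 71.5, 73.99 and 71.1 TPM in sgCHD4 (log2 fold change 0.92 ± 0.063, adjusted p = 3.23e-07). VIM was 3226, 3249.8, 3306 and 3069 TPM in sgRosa and 4539, 4517, 4291 and 4468 TPM in sgCHD4 (log2 fold change 0.47 ± 0.034, adjusted p = 4.55e-07). SNAI1 rose from 1.05 to 3.05 TPM (log2 fold change 1.01 ± 0.18, adjusted p = 0.000552) and CDH1 from 27.1 to 34.9 TPM (log2 fold change 0.35 ± 0.084, adjusted p = 0.00461). In all 4 genes every sgCHD4 library exceeded every control, so E-cadherin and vimentin transcripts were raised together, and ZEB1 went from 12.9 to 12.8 TPM (adjusted p = 0.929). With a pseudocount of 0.1 the log2 fold change of SNAI1 was 1.57.

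CB-6644 raised SNAI1 in empty-vector cells of both PDAC lines. Each vector had 1 DMSO library, so the 3 DMSO libraries of a line served as 1 control group. In AsPC-1 SNAI1 was 3.08, 2.03 and 2.69 TPM in DMSO and 9.68, 9.91 and 12.2 TPM in EV cells with CB-6644 (log2 fold change 1.69 ± 0.13, adjusted p = 5.98e-07). In T3M-4 it was 3.75, 2.896 and 2.03 TPM in DMSO and 16.4, 11.9 and 8.48 TPM in EV cells with CB-6644 (log2 fold change 1.75 ± 0.20, adjusted p = 0.000114). All treated libraries lay above the controls. VIM fell in AsPC-1, from 3847, 3365 and 3203 TPM to 1956, 2019 and 1871 TPM (log2 fold change -0.83 ± 0.064, adjusted p = 5.78e-07), and ZEB1 rose from 19.9 to 30.4 TPM (log2 fold change 0.60 ± 0.089, adjusted p = 9.89e-05). In T3M-4 SNAI2 fell from 42.8, 30.4 and 25.6 TPM to 24.1, 19.4 and 16.4 TPM (log2 fold change -0.68 ± 0.17, adjusted p = 0.00949). The call was lost when fitted on its own pair of groups and against the single DMSO library of the same vector. CDH1 was not called in AsPC-1 (log2 fold change 0.18 ± 0.088, adjusted p = 0.0834) or T3M-4 (log2 fold change 0.37 ± 0.22, adjusted p = 0.206). In all, 3 of 5 members were called in AsPC-1, where 64.4% of all genes were, and 2 of 5 in T3M-4, where 34.3% were, so the counts were close to the shares of all genes. After scaling by the median of ratios the log2 fold change of ZEB1 in AsPC-1 was 0.34.

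With CB-6644, cells carrying RUVBL1 A62T or RUVBL2 dF109 had less SNAI1 than empty-vector cells. SNAI1 was 4.32, 4.03 and 3.63 TPM in A62T and 3.796, 4.65 and 3.404 TPM in dF109 AsPC-1 cells, below every EV library with CB-6644. The log2 difference from EV was -1.21 ± 0.13, adjusted p = 1.50e-05 for A62T and -1.23 ± 0.13, adjusted p = 1.75e-05 for dF109. In T3M-4 SNAI1 was 6.35, 5.98 and 5.56 TPM in A62T and 7.15, 7.53 and 7.14 TPM in dF109, with log2 differences from EV of -0.89 ± 0.20, adjusted p = 0.0053 and -0.64 ± 0.20, adjusted p = 0.0343. The dF109 call was lost without dF109 CB-6644 library 1, 2 or 3 or EV CB-6644 library 1 or 2 (log2 difference -0.66 to -0.42, adjusted p 0.0787 to 0.0901). It was also lost with no filter on low values and when fitted on its own pair of groups. VIM in AsPC-1 with CB-6644 was 3297, 3412 and 3532 TPM in A62T and 2818, 2790.5 and 2944 TPM in dF109, above every EV library (0.81 ± 0.064, adjusted p = 1.69e-06 and 0.55 ± 0.064, adjusted p = 3.37e-05). ZEB1 in AsPC-1 was lower than in EV, with log2 differences of -0.32 ± 0.089, adjusted p = 0.00991 in A62T and -0.44 ± 0.089, adjusted p = 0.00155 in dF109. In T3M-4 SNAI2 was 41.98, 42.5 and 39.7 TPM in A62T and 38.2, 36.9 and 38.8 TPM in dF109, above every EV library (1.03 ± 0.17, adjusted p = 0.000981 and 0.91 ± 0.17, adjusted p = 0.00461). Of 20 tested pairs between variant and EV cells 14 were called, 7 in each direction. The shares of all genes called were 51.1% for A62T and 47.2% for dF109 in AsPC-1, and 50.6% and 34.6% in T3M-4. CDH1 in AsPC-1 dF109 was higher than in EV (0.23 ± 0.088, adjusted p = 0.0431) and SNAI2 lower (-0.42 ± 0.14, adjusted p = 0.024). The CDH1 call was lost without dF109 CB-6644 library 1 or 2 or EV CB-6644 library 1 or 2 (log2 difference 0.19 to 0.22, adjusted p 0.105 to 0.161). It also failed the test with no filter on low values and with the replicate number as a block. The SNAI2 call was lost without dF109 CB-6644 library 3 or EV CB-6644 library 2 (log2 difference -0.39 to -0.37, adjusted p 0.0732 to 0.0749). Scaled, the ZEB1 difference in AsPC-1 A62T was -0.19 on the log2 scale.

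Against DMSO, 9 of 20 tested pairs were called in the variant cells, 8 higher and 1 lower (6 and 2 after scaling by the median of ratios). Of all genes, 12.7% in A62T and 33.4% in dF109 cells were called in AsPC-1, and 50% and 37.6% in T3M-4. SNAI1 was above DMSO in T3M-4 dF109 (log2 fold change 1.11 ± 0.20, adjusted p = 0.00392) and A62T (log2 fold change 0.86 ± 0.20, adjusted p = 0.00944). The A62T call was lost against the single DMSO library of the same vector. In AsPC-1 it was higher in A62T (log2 fold change 0.48 ± 0.13, adjusted p = 0.0352) and in dF109 (log2 fold change 0.46 ± 0.13, adjusted p = 0.02). The A62T call was lost without A62T CB-6644 library 1, 2 or 3 or the dF109 DMSO library (log2 fold change 0.36 to 0.53, adjusted p 0.0638 to 0.14). It did not pass either with no filter on low values, when fitted on its own pair of groups and against the single DMSO library of the same vector. The dF109 call was lost without dF109 CB-6644 library 1 or 2 or the dF109 DMSO library (log2 fold change 0.34 to 0.48, adjusted p 0.0546 to 0.0907). The same was seen when fitted on its own pair of groups. VIM in AsPC-1 dF109 fell to 2851 TPM (log2 fold change -0.28 ± 0.064, adjusted p = 0.00807), and in A62T it was 3414 TPM and not called (log2 fold change -0.02 ± 0.064, adjusted p = 0.845). CDH1 rose in AsPC-1 dF109 (log2 fold change 0.42 ± 0.088, adjusted p = 0.00568). Scaled, the log2 fold changes were 0.23 for CDH1 and -0.48 for VIM in AsPC-1 dF109, and 0.56 for SNAI1 in T3M-4 A62T. Against its own DMSO library SNAI1 in AsPC-1 dF109 was 0.70 on that scale.

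The DMSO libraries of T3M-4 differed by vector in CDH1 and FN1, which bears on the variant values. CDH1 in DMSO was 65.4 TPM in EV, 135 in A62T and 91.7 in dF109, and FN1 was 7.41, 23.2 and 14.03 TPM in the same order. With CB-6644 CDH1 was 159, 164 and 158 TPM in A62T (log2 fold change 0.77 ± 0.22, adjusted p = 0.0157) and 159, 164 and 159 TPM in dF109 (log2 fold change 0.78 ± 0.22, adjusted p = 0.0185). The A62T call of CDH1 was lost after scaling by the median of ratios and against the single DMSO library of the same vector. The dF109 call of CDH1 was lost without dF109 CB-6644 library 1, 2 or 3 or the dF109 DMSO library or the EV DMSO library (log2 fold change 0.53 to 0.79, adjusted p 0.0516 to 0.0587). FN1 was 27.6, 27.99 and 25.2 TPM in A62T (log2 fold change 0.94 ± 0.30, adjusted p = 0.0257). The FN1 call was lost without A62T CB-6644 library 1, 2 or 3 or the dF109 DMSO library or the EV DMSO library (log2 fold change 0.55 to 0.99, adjusted p 0.0559 to 0.0769). It was lost as well after scaling by the median of ratios, when fitted on its own pair of groups and against the single DMSO library of the same vector. Against EV cells with CB-6644, FN1 was higher in A62T (1.33 ± 0.30, adjusted p = 0.00471) and in dF109 (1.07 ± 0.30, adjusted p = 0.0212). The dF109 call was lost without dF109 CB-6644 library 1, 2 or 3 or EV CB-6644 library 2 or 3 (log2 difference 0.87 to 1.12, adjusted p 0.0519 to 0.0721). Against the DMSO library of the same vector the log2 fold change in A62T was 0.25 (adjusted p = 0.477) for CDH1 and 0.20 (adjusted p = 0.63) for FN1. Scaled, CDH1 in dF109 changed by 0.43 on the log2 scale. The EV DMSO library of T3M-4 stood apart as a whole, with a median ratio to its experiment of 0.777.

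**Figure D4:**
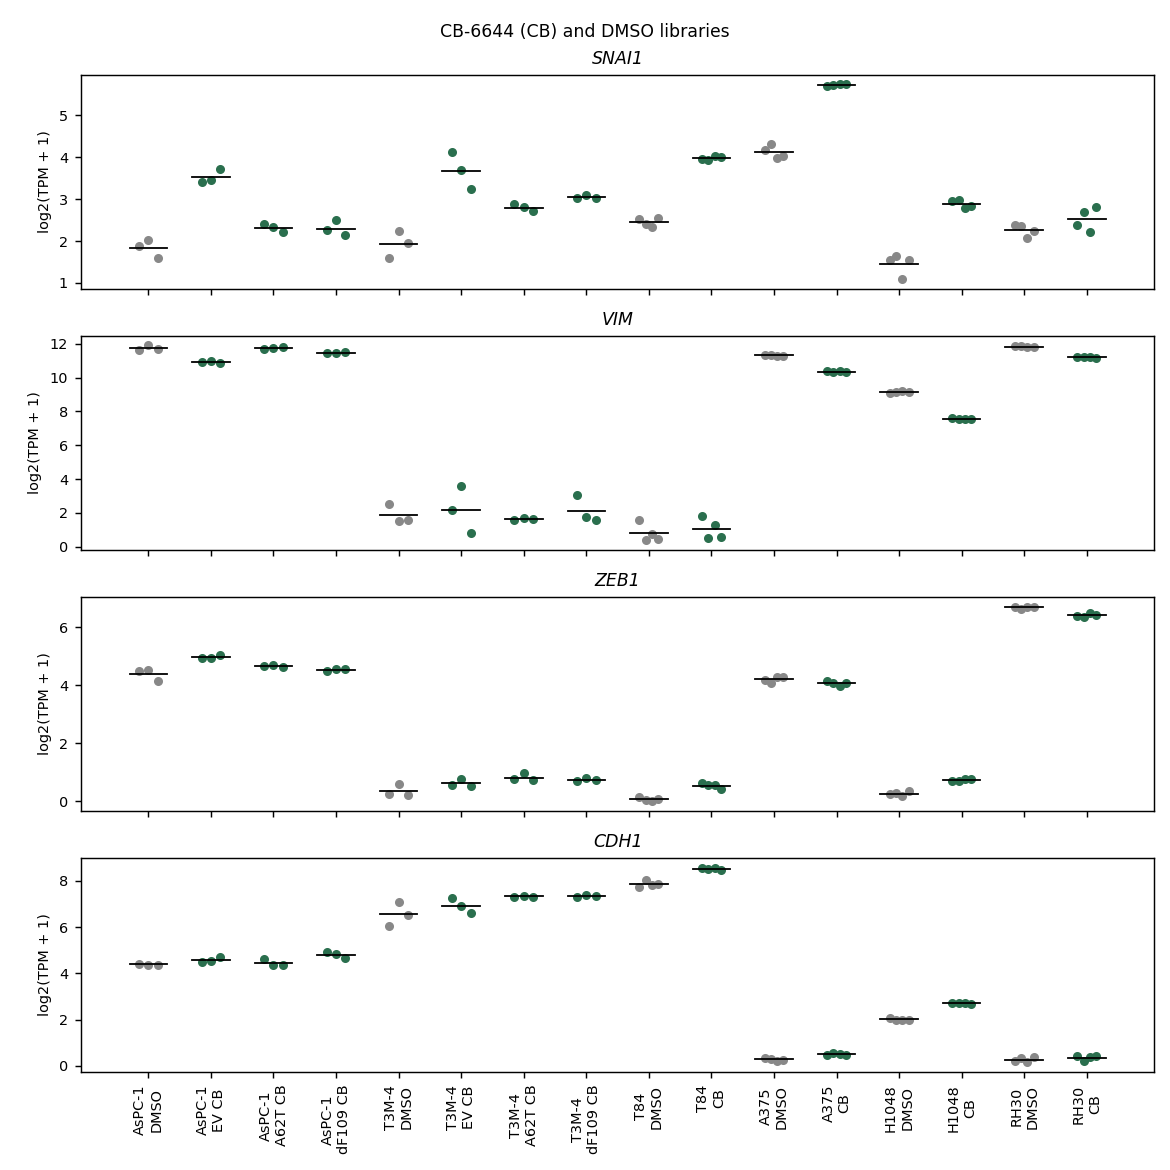
SNAI1, VIM, ZEB1 and CDH1 in every DMSO (grey) and CB-6644 (green) library, as log2(TPM + 1) on the y axis, by line and vector on the x axis, with bars at group means. The 3 grey points of AsPC-1 and T3M-4 are the EV, A62T and dF109 cells in DMSO. SNAI1 is separated from DMSO in EV AsPC-1, EV T3M-4, T84, A375 and H1048 and overlaps it in RH30.

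In the 4 lines outside PDAC, CB-6644 raised SNAI1 in T84, A375 and H1048 and lowered VIM in the 3 lines that express it. Of 27 tested pairs 23 were called, 10 higher and 13 lower (8 and 16 after scaling by the median of ratios), and of all genes 71.4% were called in T84, 81.1% in A375, 77.9% in H1048 and 77.7% in RH30, so the count was close to the share of all genes. SNAI1 was 17.1, 19.1, 14.8 and 15.4 TPM in DMSO and 51.1, 51.7, 52.5 and 52.6 TPM with CB-6644 in A375 (log2 fold change 1.59 ± 0.065, adjusted p = 1.43e-09). In T84 it was 4.77, 4.26, 4.03 and 4.88 TPM in DMSO and 14.5, 14.3, 15.2 and 15.1 TPM with CB-6644 (log2 fold change 1.53 ± 0.075, adjusted p = 1.46e-10). In H1048 it was 1.91, 2.11, 1.14 and 1.94 TPM in DMSO and 6.72, 6.94, 5.89 and 6.099 TPM with CB-6644 (log2 fold change 1.43 ± 0.11, adjusted p = 2.51e-07). The groups did not overlap in these lines, whereas in RH30 SNAI1 was 4.19, 4.11, 3.23 and 3.76 TPM in DMSO and 4.21, 5.46, 3.66 and 6.02 TPM with CB-6644, with overlap and no call (log2 fold change 0.26 ± 0.12, adjusted p = 0.0678). The SNAI1 change differed among the 4 lines (limma F test of the interaction, adjusted p = 2.98e-09), where 86.2% of all genes did.

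VIM fell in H1048 from 552, 578, 587 and 563 TPM to 194, 184, 191 and 188 TPM (log2 fold change -1.59 ± 0.028, adjusted p = 2.92e-12), in A375 from 2564 to 1315 TPM (log2 fold change -0.96 ± 0.02, adjusted p = 1.45e-11) and in RH30 from 3662 to 2360.4 TPM (log2 fold change -0.63 ± 0.021, adjusted p = 7.69e-11). In T84 VIM was near 1 TPM, passed the filter only through the CB-6644 libraries and was not called (log2 fold change 0.26 ± 0.27, adjusted p = 0.408). CDH1 rose in the 2 lines with CDH1 above the filter. In T84 it was 212, 259, 223 and 233 TPM in DMSO and 379, 361, 375.4 and 353 TPM with CB-6644 (log2 fold change 0.67 ± 0.052, adjusted p = 1.90e-08), and in H1048 it went from 3.03 to 5.54 TPM (log2 fold change 0.70 ± 0.065, adjusted p = 9.61e-07), without overlap in either line.

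SNAI2, TWIST1, ZEB1 and ZEB2 moved down or were not called in the lines where they were tested. TWIST1 was 12.1, 10.9, 9.87 and 10.9 TPM in DMSO and 7.305, 7.596, 7.51 and 7.93 TPM with CB-6644 in A375 (log2 fold change -0.47 ± 0.061, adjusted p = 2.07e-05), and in H1048 went from 59.4 to 46.9 TPM (log2 fold change -0.33 ± 0.054, adjusted p = 0.000107). SNAI2 fell in RH30 from 153 to 96.04 TPM (log2 fold change -0.67 ± 0.033, adjusted p = 2.15e-09) and in H1048 from 4.26 to 2.34 TPM (log2 fold change -0.65 ± 0.11, adjusted p = 0.000136). ZEB2 fell in H1048 (log2 fold change -0.48 ± 0.064, adjusted p = 2.16e-05) and A375 (log2 fold change -0.21 ± 0.055, adjusted p = 0.00414) and was not called in RH30 (log2 fold change -0.016 ± 0.036, adjusted p = 0.693). ZEB1 fell in RH30 from 102 to 84.3 TPM (log2 fold change -0.27 ± 0.032, adjusted p = 4.64e-06) and, with overlapping groups, in A375 (log2 fold change -0.13 ± 0.055, adjusted p = 0.0436). The A375 call was lost without CB-6644 library 2, 3 or 4 or DMSO library 1, 3 or 4 (log2 fold change -0.14 to -0.11, adjusted p 0.0562 to 0.117). It was also lost with no filter on low values and with the replicate number as a block. In A375 and H1048 SNAI1 therefore rose while each other tested factor fell. Scaled, the log2 fold changes were -0.54 for TWIST1 in H1048, -0.44 and -0.34 for ZEB1 in RH30 and A375, and -0.41 for ZEB2 in A375.

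Of the matrix genes, SPARC rose in 2 lines and FN1 in RH30. SPARC rose in RH30 from 419, 419.6, 418 and 421 TPM to 535, 537, 533 and 532 TPM (log2 fold change 0.35 ± 0.019, adjusted p = 4.75e-09) and in A375 from 600.1 to 702 TPM (log2 fold change 0.23 ± 0.025, adjusted p = 6.68e-06), both without overlap. The A375 call was lost after scaling by the median of ratios. FN1 rose in RH30 from 1.63 to 3.33 TPM (log2 fold change 0.72 ± 0.083, adjusted p = 4.82e-06), and in A375 from 38.2 to 43.1 TPM with overlap (log2 fold change 0.17 ± 0.058, adjusted p = 0.0155), a direction that turned after scaling by the median of ratios (log2 fold change -0.043, adjusted p = 0.53). CDH2 rose in RH30 (log2 fold change 0.33 ± 0.037, adjusted p = 3.36e-06) and fell in A375 (log2 fold change -0.31 ± 0.036, adjusted p = 9.01e-06) and slightly in H1048 (log2 fold change -0.094 ± 0.039, adjusted p = 0.0425). The H1048 call was lost without CB-6644 library 1, 2, 3 or 4 or DMSO library 1, 3 or 4 (log2 fold change -0.10 to -0.082, adjusted p 0.0587 to 0.104). It also failed the test with the replicate number as a block. Of the members, SNAI1 and VIM were tested in each of the 4 lines. VIM passed the filter in T84 only through the CB-6644 libraries. The other 8 entered the test of a difference among lines through the lines where they are expressed. Nothing is read from that test for VIM and these 8. Scaled, the log2 fold change of SPARC was 0.18 in RH30, and those of CDH2 were 0.16 in RH30, -0.53 in A375 and -0.30 in H1048.

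Lists of related genes were counted beside the members. They were chosen with earlier results of these data known and give no independent evidence. Counts are given as deposited and, where they differed, after scaling by the median of ratios. Of all genes, 25.9% and 27.8% were called after KLF5 knockout in AsPC-1 experiments 1 and 3, 3.94% in SUIT-2 and 16.2% in CFPAC-1. The shares were 5.72% and 34.6% in T3M-4 experiments 1 and 2, and 16.2% and 34.6% in BxPC-3 experiments 1 and 2. Of 27 mesenchymal matrix genes, 12 rose and 2 fell of 18 tested after KLF5 knockout in T3M-4 experiment 2, 13 rose and 2 fell of 20 in BxPC-3 experiment 1 and 4 rose and 1 fell of 13 (4 and 3 scaled) in BxPC-3 experiment 2. The counts were 5 rose and 3 fell of 11 and 6 rose and 1 fell of 10 in AsPC-1 experiments 1 and 3, 7 rose and 0 fell of 15 in SUIT-2, 0 rose and 5 fell of 19 (2 and 3 scaled) in CFPAC-1 and 0 rose and 0 fell of 18 (5 and 4 scaled) in T3M-4 experiment 1. The list's median log2 fold change against that of all genes was 0.60 against 0.10 in T3M-4 experiment 2, 1.06 against -0.023 and 0.16 against 0.047 in BxPC-3 experiments 1 and 2, 1.05 against 0.18 in SUIT-2 and -0.12 against -0.11 in CFPAC-1. THBS1, which encodes the matrix protein thrombospondin-1, rose from 101 ± 38.4 to 395 ± 23.8 TPM (SD, n = 4 and 4) in T3M-4 experiment 2 and from 18.5 ± 3.57 to 107 ± 13.7 TPM (n = 2 and 6) in AsPC-1 experiment 1. CTGF (CCN2), a secreted matricellular protein, rose from 4.03 ± 1.81 to 107 ± 16.7 TPM in SUIT-2, from 13.2 ± 3.01 to 83.5 ± 18.9 TPM in AsPC-1 experiment 3 and from 7.34 ± 1.19 to 23.6 ± 3.03 TPM in BxPC-3 experiment 2 (n = 4 and 4 each). In AsPC-1 the list's median against all genes was 0.99 against 0.082 and 0.81 against 0.02 in experiments 1 and 3. The genes that fell most there were LUM (lumican, 1 of the 7 fibroblast markers above, from 108 ± 7.77 to 67.2 ± 5.98 TPM) and TGFBI (from 510.4 ± 26.8 to 359 ± 30.7 TPM) in experiment 1 and the collagen chain COL6A1 (from 128 ± 14.4 to 82.2 ± 24.1 TPM) in experiment 3.

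Of 24 genes of the epithelial state, 23 had values. RUVBL1 knockout called 60.5% of all genes in T3M-4, 55.8% and 51.9% in AsPC-1 experiments 2 and 3 and 43.8% in CFPAC-1. The shares after KLF5 knockout are those given with the matrix genes. After RUVBL1 knockout 14 rose and 2 fell of 23 (14 and 6 scaled) in T3M-4, 4 rose and 13 fell of 19 and 1 rose and 10 fell of 19 (1 and 13 scaled) in AsPC-1 experiments 2 and 3, and 7 rose and 3 fell of 23 (13 and 2 scaled) in CFPAC-1, with medians against all genes of 0.68 against 0.25, -0.38 against 0.018, -0.38 against 0.16 and 0.17 against -0.20. The tight-junction gene CLDN3 moved in those directions, from 13.7 ± 2.91 to 58.6 ± 7.65 TPM (n = 4 and 3) in T3M-4 and from 91.0 ± 8.09 to 41.3 ± 5.48 TPM (n = 4 and 4) in AsPC-1 experiment 3. After KLF5 knockout the counts were 9 rose and 2 fell of 21 (8 and 2 scaled) and 1 rose and 5 fell of 19 (1 and 6 scaled) in AsPC-1 experiments 1 and 3, and 6 rose and 2 fell of 23 (7 and 2 scaled) and 1 rose and 12 fell of 23 (1 and 13 scaled) in BxPC-3 experiments 1 and 2. The counts were 4 rose and 1 fell of 23 (7 and 0 scaled) and 7 rose and 4 fell of 23 (6 and 5 scaled) in T3M-4 experiments 1 and 2, 0 rose and 1 fell of 23 (0 and 3 scaled) in SUIT-2 and 0 rose and 9 fell of 23 (0 and 2 scaled) in CFPAC-1. Of 12 partners of E-cadherin at the adherens junction, 6 rose and 0 fell of 12 (6 and 1 scaled) after KLF5 knockout and 8 rose and 0 fell of 12 (6 and 0 scaled) after RUVBL1 knockout in T3M-4 experiment 2, and 0 rose and 6 fell of 12 (0 and 4 scaled) after KLF5 knockout in CFPAC-1. Of all genes, 34.6%, 60.5% and 16.2% were called in the same order. Of those called, 67.5%, 75.9% and 20.1% were higher. Of 19 other regulators of EMT, 4 rose and 10 fell of 16 (4 and 11 scaled) with CB-6644 in A375, 3 rose and 10 fell of 16 (2 and 11 scaled) in H1048, 6 rose and 5 fell of 15 (4 and 8 scaled) in RH30 and 3 rose and 6 fell of 10 (3 and 7 scaled) in T84. Of 18 mesenchymal cytoskeleton and surface genes, 10 rose and 3 fell of 15 (8 and 6 scaled) with CB-6644 in RH30, 8 rose and 3 fell of 14 (7 and 6 scaled) in A375, 7 rose and 3 fell of 13 (4 and 3 scaled) in H1048 and 6 rose and 2 fell of 11 (4 and 2 scaled) in T84. After KLF5 knockout the counts of that list were 6 rose and 5 fell of 15 and 7 rose and 2 fell of 14 in BxPC-3 experiments 1 and 2, and 3 rose and 2 fell of 15 (7 and 3 scaled) and 6 rose and 3 fell of 15 in T3M-4. Over all genes the median log2 fold change lay more than 0.1 from 0 in 9 of the 17 comparisons of KLF5, RUVBL1 or RUVBL2 knockout, between -0.22 in T3M-4 experiment 1 after KLF5 knockout and 0.25 in T3M-4 after RUVBL1 knockout. In the 4 lines outside PDAC it was 0.13 to 0.18 with CB-6644. There 71.4% of all genes were called in T84, 81.1% in A375, 77.9% in H1048 and 77.7% in RH30. The counts of both lists given with CB-6644 were near these shares.

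Across the 9 lines, the genes whose mean control level, as log2(TPM + 1), was most like that of CDH1 included TTC22 (Pearson r = 0.974 over 9 lines, among 12069 genes compared), CBLC (0.963), MST1R (0.958) and FOXQ1 (0.957), and the most opposite were DLX1 (-0.972), NFIC (-0.952), GPSM1 (-0.952), BLMH (-0.951) and SPC24 (-0.951). For VIM the most alike were LIX1L (0.97), LMCD1 (0.943), CCDC88A (0.937), IKBIP (0.933) and OCEL1 (0.931), and the most opposite were GGT6 (-0.964), ANKRD49 (-0.923), OVOL1 (-0.913), SYT7 (-0.911) and LY6G6C (-0.908). Of the members, ZEB2 ran most opposite to CDH1 (r = -0.92) and ZEB1 most alike to VIM (r = 0.792), while CDH1 and VIM had r = -0.644. These values describe 9 line means from separately normalized tables and carry no test.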

How the data were processed

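Poly-A RNA was sequenced in 183 libraries (127 at 5 days after sgRNA introduction, 56 at 24 h of CB-6644 or DMSO) as single-end reads. The authors quantified reads with kallisto against hg38, removed low-abundance transcripts and summarised to genes with tximport, and deposited the values as TPM in 8 tables of 19875 genes, which keep no read depth. Groups, experiments and replicates came from the sample labels. Comparisons were made within a line and experiment with limma 3.58.1 (R 4.3.3; Python 3.11.15 and pandas 2.3.3 for joins) on log2(TPM + 1) with a mean-variance trend, keeping genes whose fitted libraries averaged 1 TPM or more, and p-values were adjusted by Benjamini-Hochberg over all of them. All libraries of an experiment shared 1 estimate of the spread. Log2 fold changes are on the log2(TPM + 1) scale, which understates changes of low genes. TPM are shares of a library, so a change in a few abundant genes moves all others. Knockouts were also set against the mean of CDK1 and RPA3 knockout, and between experiments by an interaction term. The members and gene lists were chosen with earlier results of these data known. The named list genes are at most the 2 with the largest rise and fall per list among those past the threshold, and the likeness search took the 5 highest and 5 lowest correlations for CDH1 and VIM, of which 1 gene is not reported here. Alternatives were a pseudocount of 0.1, no filter, a filter at 5 TPM, scaling by the median of ratios, fits of the groups compared alone, the replicate number as a block, 1 DMSO library as control and leaving out each library. The fit was tested on simulated data, where 200 genes were changed in each of 7 comparisons. The authors left out 1 T3M-4 RUVBL1 knockout library for low concentration. Two-sided tests were used throughout.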

Additional observations from a re-analysis of the deposited data

Results flagged for a closer look

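Of 176 pairs of gene and group examined, with 4 to 6 libraries and a mean of at least 1 TPM, 9 held a library that stood apart. Its gap to the others was large for the group's range. Chance alone flags about 1 in 20 independent pairs, but these pairs share libraries. CDH1 was 32.2 TPM in SUIT-2 sgRosa library 1 and 51.8 TPM in T3M-4 experiment 2 sgRosa library 4, the lowest of their groups, and both libraries also had low median ratios to their experiment (0.645 and 0.773). CFPAC-1 sgRosa library 2 was the highest of its group in CDH2 (63.9 TPM), FN1 (9.18 TPM) and SNAI1 (2.98 TPM). The lowest of their groups were also VIM at 173 TPM in BxPC-3 experiment 1 sgKLF5 library 2, ZEB1 at 11.3 TPM in AsPC-1 sgSERPINB5 library 4 and TWIST1 at 42.2 TPM in H1048 CB-6644 library 2. SPARC was highest in AsPC-1 experiment 1 sgKLF5 library 6, at 4.52 TPM.

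The CB-6644 change differed among T84, A375, H1048 and RH30 for 9 members, with adjusted p in limma of 2.90e-08 for CDH1, 5.28e-10 for CDH2, 3.31e-06 for VIM, 2.48e-10 for FN1, 2.83e-11 for ZEB1, 9.96e-08 for ZEB2, 2.98e-09 for SNAI1, 8.99e-09 for SNAI2 and 2.27e-05 for TWIST1. Only SNAI1 and VIM were tested in each line, and VIM passed the filter in T84 only through the CB-6644 libraries. The other 7 were below the filter in at least 1 line. Nothing is read from the differences of VIM and these 7.

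The knockout change differed between experiments of 1 line in 13 cases, as the log2 difference of the later minus the earlier experiment. For KLF5 knockout it was -0.76 in CDH1 and 0.30 in VIM in AsPC-1, 0.88 in CDH2, 2.19 in VIM and 1.29 in SNAI2 in T3M-4, and -1.31 in VIM, 1.06 in SNAI2 and -2.05 in SPARC in BxPC-3. For RUVBL1 knockout in AsPC-1 it was -0.72 in CDH1 and 0.91 in ZEB1. For RPA3 knockout in BxPC-3 it was -0.79 in VIM, -0.96 in SNAI2 and 1.05 in SPARC. SPARC was below the filter in BxPC-3 experiment 2. In T3M-4 VIM in experiment 2 and CDH2 in experiment 1 passed the filter only through the sgKLF5 libraries. Nothing is read from the differences of these members in those lines for SPARC and KLF5 knockout.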

How the results depend on the processing

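Of 158 member values that passed the test outside the DMSO comparisons, all kept their direction under every alternative that could be run except 2. After scaling by the median of ratios FN1 in A375 with CB-6644 was -0.0431 (adjusted p = 0.53) and VIM in CFPAC-1 after RUVBL1 knockout against CDK1 and RPA3 knockout was 0.074 (adjusted p = 0.374), and the cause was not tested. Scaling also moved the count of members called after CDK1 or RPA3 knockout from 7 to 11, and 13 values were no longer called. Over all genes it moved the counts called from 723 to 2518 in T3M-4 experiment 1 and from 496 to 823 in SUIT-2 after KLF5 knockout, from 6698 to 3886 and 5038 to 3279 in T3M-4 A62T and dF109 cells with CB-6644, from 4 to 1 after SERPINB5 knockout, and from 2285 to 3932 and 14 to 52 between the T3M-4 experiments for KLF5 and RPA3. The share of called genes that were higher moved with it, for example from 75.9% to 46.9% in T3M-4 and from 14.9% to 53.1% in CFPAC-1 after RUVBL1 knockout, and from 91.1% to 35% in T3M-4 dF109 cells with CB-6644. With no filter 17 values lost their call, fitted on the compared groups alone 18 of 145, with a pseudocount of 0.1 3, and against the single DMSO library of the same vector 5 of 14, while a filter at 5 TPM kept all 136 that it tested. Leaving out 1 library at a time ended the call of 39 of the 158 values in at least 1 case. The member counts then ranged from 20 to 24 for KLF5, 26 to 29 for RUVBL1 or RUVBL2, 5 to 9 for CDK1 or RPA3, 4 to 4 for SERPINB5 or CHD4, 33 to 36 against CDK1 and RPA3, 5 to 6 for empty-vector cells with CB-6644, 7 to 12 for variant cells, 12 to 14 for variant against empty vector, 22 to 24 for the other 4 lines, 9 to 10 among those lines, 57 to 57 between their DMSO libraries and 10 to 15 between experiments.

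The labels do not say that a replicate number is shared between groups, and the deviations of same-numbered libraries did not all correlate above 0.1 in any comparison. With the replicate number as a block 25 in place of 21 members were called after KLF5 knockout, 27 in both fits after RUVBL1 or RUVBL2 knockout and 6 in place of 7 after CDK1 or RPA3 knockout, and in T3M-4 experiment 1 after KLF5 knockout 4391 in place of 723 genes and 4 in place of 0 members. In SUIT-2 after KLF5 knockout the block gave 153 in place of 496 genes, and between experiments 7846 in place of 2285 (T3M-4, KLF5), 48 in place of 14 (T3M-4, RPA3) and 1470 in place of 966 (BxPC-3, RPA3). After SERPINB5 knockout it gave 1 in place of 4 genes, and after RPA3 knockout in T3M-4 experiment 1 2 in place of 0. The block left 4 calls after SERPINB5 or CHD4 knockout, and gave 36 against CDK1 and RPA3 knockout, 15 between variant and empty vector, 22 in the other 4 lines, 10 among them, 58 between their DMSO libraries and 16 between experiments. No block could be fitted for variant or empty-vector cells against DMSO, since the DMSO libraries carry no number. Read depth is unknown, so levels below the filter could not be given a limit of detection, and groups of 2 libraries give little information on the spread.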
